A study of Mus musculus with 6 samples.

Results

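The carbonic anhydrase family was examined in subcutaneous white adipose tissue of mice lacking Nampt in adipocytes. The 10 members were taken by gene symbol (Car2, Car3, Car4, Car5a, Car5b, Car7, Car8, Car9, Car13 and Car14) from the 40428 features of the count table, and all 10 were present. RNA was sequenced from 6 mice of the C57BL/6J background kept at room temperature on regular chow. The 3 controls carried floxed Nampt alleles (flox/flox). In the 3 ANKO mice (adipocyte-specific Nampt knockout) a Cre recombinase under the adiponectin promoter had removed Nampt, the NAD salvage enzyme, from adipocytes. The sources used here state neither the age of the mice, nor whether controls carried Cre, nor which exons were floxed. The comparison asks how this deletion altered gene expression in the depot. Whole tissue was used, so fewer cells of a type and less RNA per cell cannot be told apart.

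Carbonic anhydrases are zinc enzymes that interconvert carbon dioxide and water with bicarbonate and a proton. Family members differ in where they act: in the cytosol (Car1, Car2, Car3, Car7 and Car13), in mitochondria (Car5a and Car5b), at the cell surface (Car4, Car9, Car12, Car14 and Car15) or outside the cell (Car6), while Car8, Car10 and Car11 are related proteins that lack the enzyme activity. Car3 is a cytosolic form with low carbon dioxide hydration activity that is very abundant in adipocytes and also present in slow skeletal muscle and liver. Mitochondrial forms supply bicarbonate to carboxylases such as pyruvate carboxylase.

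Libraries held 19748962 to 23860596 counts. Nampt itself stood at 83.6, 93.0 and 87.0 CPM (counts scaled to a fixed library total, corrected for library composition by TMM) in controls 1 to 3 and at 48.6, 50.2 and 47.0 CPM in ANKO 1 to 3 (log2 fold change -0.85, SE 0.0776, edgeR quasi-likelihood adjusted p = 0.00416). The adipocyte identity of the tissue was present in every library, with Adipoq at 258 CPM or more. Skeletal muscle RNA varied widely within each group. The share of the 21 muscle markers was 1.23%, 0.362% and 1.85% in the controls, in order of replicate number, and 3.65%, 0.614% and 0.0308% in the ANKO libraries.

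The family is encoded in part by a cluster on chromosome 3 that holds Car13, Car1, Car3 and Car2. Car3 (GRCm38 chromosome 3, 14863512 to 14872523, plus strand) lies 13.7 kb from Car2 and 55.1 kb from Car1, and Car1 lies 103 kb from Car13. Related coding sequences could in principle take each other's reads, so the coding transcript of Car3 was compared with those of the 15 other family genes. The longest run of bases identical to any of them was 21 bases, shared with Car5b, followed by 20 bases shared with Car1, 16 with Car8, 15 with Car5a and 14 each with Car2 and Car7. The stretch around the 21-base run is printed to show how far these genes resemble each other, with the identical run in capitals. Both lines are spliced coding sequence, 5′ to 3′, from the GENCODE M21 transcripts of GRCm38: bases 280 to 360 of the Car3 coding sequence, across exons 3 and 4 (chr3:14866850-14868357, plus strand), and bases 388 to 468 of the Car5b coding sequence, across exons 4 and 5 (chrX:163990512-163991422, minus strand).
Car3: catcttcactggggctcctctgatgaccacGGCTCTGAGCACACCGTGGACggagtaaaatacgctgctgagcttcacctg
Car5b: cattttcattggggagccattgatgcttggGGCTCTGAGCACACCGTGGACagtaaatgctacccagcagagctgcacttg
The capitals mark the longest identical run, and the runs shared by Car3 with the family genes other than Car5b and Car1 were 16 bases or shorter. The sources used here give neither the read length nor how reads with several matches were handled.

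Car3 fell in ANKO tissue to 0.333 of its control level and was the member that passed the test. Its level was 5011, 6740 and 7794 CPM in the control libraries 1 to 3, against 2548, 1849 and 2112 CPM in ANKO 1 to 3. All 3 ANKO libraries lay below all 3 controls, and control 1 was the lowest control. The group means were 6515 ± 1405 and 2170 ± 353 CPM (SD, n = 3), with a log2 fold change of -1.59 (SE 0.198, edgeR adjusted p = 0.0109). Car3 took 0.507% to 0.745% of all counts in controls and 0.18% to 0.254% in ANKO. It ranked 9th of all features by mean CPM in controls and 30th in ANKO, and its mean loss of 4345 CPM was the 2nd largest of any feature. The call was lost without ANKO 3 (log2 fold change -1.57, adjusted p = 0.0675), and was kept when any other single library was left out. Without ANKO 3, the calls over all features also fell, from 212 lower and 94 higher to 55 and 20.

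**Figure D1:**
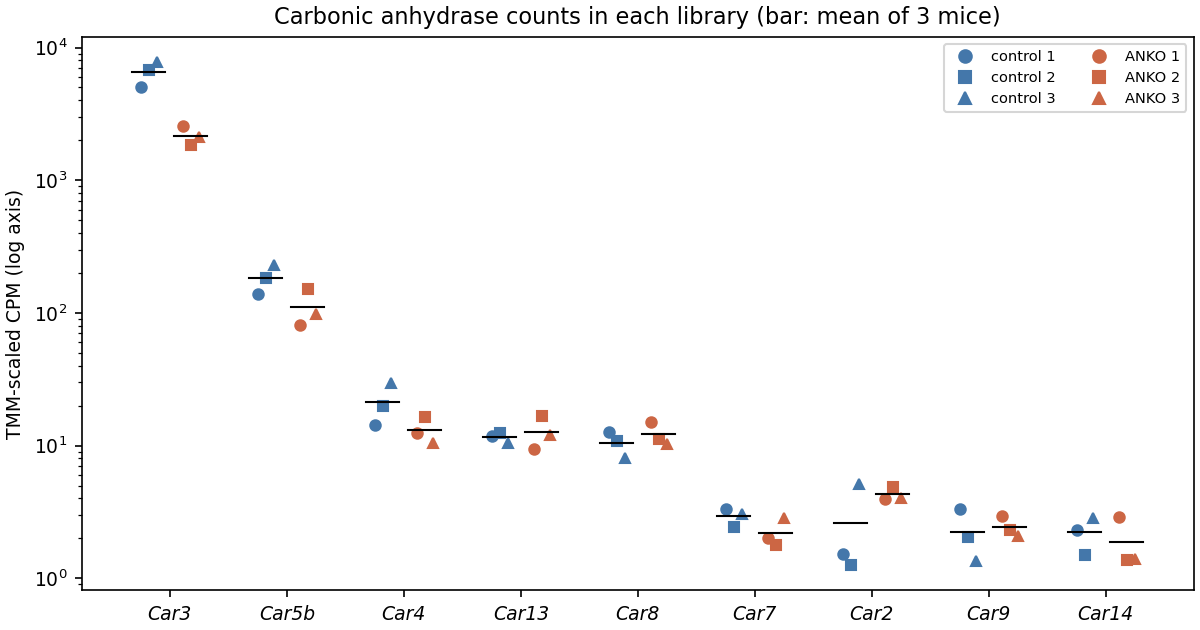
TMM-scaled CPM (log axis) of the 9 tested members in each library, controls in blue and ANKO in orange, with black bars for the mean of 3 mice. The 3 ANKO values of Car3 (1849 to 2548 CPM) sit below its 3 control values (5011 to 7794 CPM), while the groups of the other 8 members overlap.

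Of the 10 members, 9 passed the filter on low counts and 1, Car5a, did not. Over all 19272 features tested, 1.1% were called lower and 0.488% higher in ANKO at an adjusted p under 0.05, and 1.59% in either direction. Among the 9 tested members 1 was called lower and 0 higher by edgeR, and DESeq2 likewise called 1 lower (Car3) and 0 higher. Unadjusted p was under 0.05 for 3 of the 9 (Car3, Car5b and Car4), all lower in ANKO, and for 0 higher, against 6.9% of all features lower and 6.03% higher. The members had a median log2 fold change of -0.23, with 5 negative and 4 positive values, and the median over all features was 0.00068. Groups did not overlap for 1 of the 9 members, against 10.2% of all features with ANKO wholly below control and 9.19% wholly above, 19.4% in either direction.

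**Figure D2:**
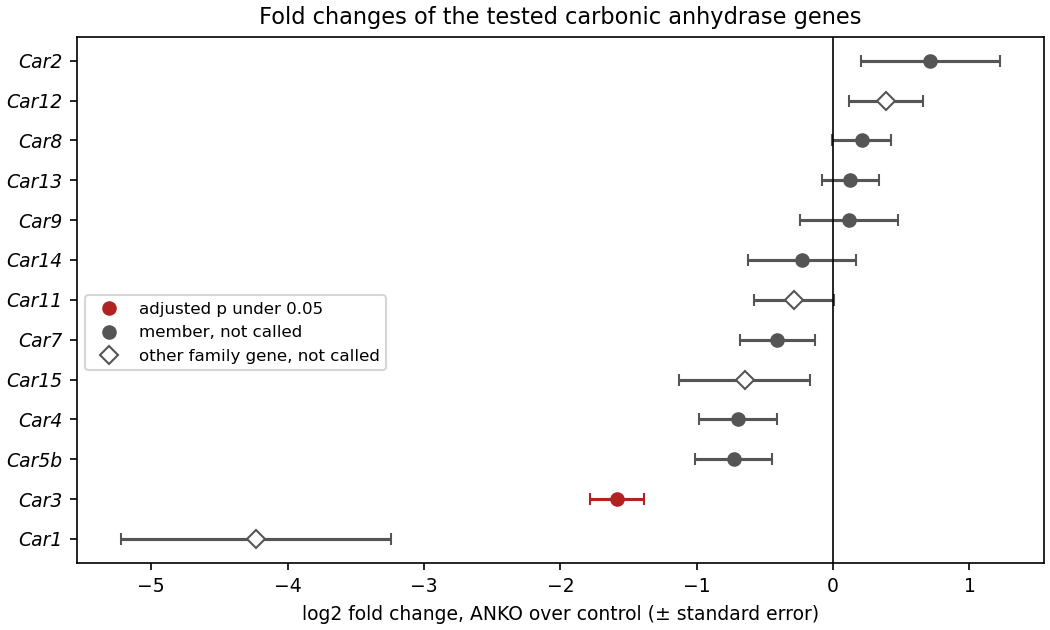
Log2 fold change of ANKO over control with its standard error for the 9 tested members (filled circles) and the 4 other tested family genes (open diamonds). Car3 at -1.59 is the gene past the threshold, and Car1 at -4.23 has a wide error because its counts were low.

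Car3 remained by far the most abundant carbonic anhydrase in both groups. Scaled to the length of merged exons, its level was 2274 ± 490 CPM per kilobase in controls and 757 ± 123 in ANKO. Car5b came next, with 29.0 ± 7.23 CPM per kilobase in controls and 17.5 ± 5.83 in ANKO, then Car4 with 10.9 ± 3.97 and 6.70 ± 1.55. Car13 followed in both groups, at 5.05 ± 0.426 and 5.52 ± 1.58 CPM per kilobase. In controls these 4 levels lay apart from one another in every library, and in ANKO the values of Car4 and Car13 overlapped. All lower neighbours among the members overlapped in controls from Car8 (2.74 ± 0.61 CPM per kilobase) down through Car2, Car9, Car14 and Car7, while Car5a lay below them. In ANKO, the neighbouring members Car13 and Car8, Car8 and Car2, Car2 and Car9, and Car7 and Car5a had ranges that lay apart, while Car9, Car14 and Car7 overlapped in turn. Car3 made up 97.7% to 97.9% of the summed per-kilobase level of the 10 members in controls and 93.3% to 96.5% in ANKO. With the longest coding transcript in place of merged exons, the first 4 places were the same genes in both groups.

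Among the other cytosolic enzymes, none was called. Car2, a fast enzyme of red cells, osteoclasts and many epithelia, had 1.53, 1.26 and 5.10 CPM in controls and 3.99, 4.85 and 4.04 CPM in ANKO. Control 3 stood apart from the other controls and above every ANKO library, so the groups overlapped. The log2 fold change was 0.71 (SE 0.51, edgeR adjusted p = 0.65) and became 1.63 without control 3 (adjusted p = 0.0569). Car13 had 11.9, 12.4 and 10.5 CPM in controls and 9.41, 16.6 and 12.0 CPM in ANKO. The controls of Car13 were close together and lay inside the ANKO range (log2 fold change 0.13, SE 0.209, adjusted p = 0.874). Car7, known mainly from neurons and muscle, had 3.33, 2.42 and 3.04 CPM in controls and 2.02, 1.78 and 2.83 CPM in ANKO (log2 fold change -0.41, SE 0.276, adjusted p = 0.621).

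The mitochondrial pair consisted of an abundant and a nearly undetected gene. Car5b (chromosome X, 163976822 to 164027997, minus strand) had 138, 184 and 230 CPM in controls and 81.7, 153 and 98.8 CPM in ANKO. ANKO 2 lay above control 1, so the groups overlapped, and the other ANKO libraries were below all controls. The log2 fold change was -0.73 (SE 0.284, unadjusted p = 0.0413, edgeR adjusted p = 0.358). Car5a, the form known mainly from liver, had 2, 0 and 2 counts in controls and 6, 4 and 0 in ANKO. The summed counts of Car5a were 4 (95% exact Poisson interval 1.09 to 10.2) and 10 (4.8 to 18.4), and these intervals cover counting error only. A library with 0 counts allows up to 3. Car5a shares 314 of its 1339 exon bases with BC048644 on the opposite strand, so some of these few reads may belong to that gene.

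Car3 and Car5b, the most abundant cytosolic and mitochondrial members, were set against each other within each library. There were 36.2, 36.7 and 33.9 counts of Car3 per count of Car5b in the controls, against 31.2, 12.1 and 21.4 in the ANKO libraries. Every ANKO ratio lay below every control ratio (mean log2 difference -0.83, SE 0.398, exact two-sided permutation p = 0.1, the smallest that 3 against 3 allows, and 0.267 after Benjamini-Hochberg adjustment over 8 such ratios and shares). ANKO 1 was close to the controls and ANKO 2 farthest from them.

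The surface enzymes were low and none passed the test. Car4, a membrane-anchored enzyme of capillary endothelium, had 14.4, 20.1 and 29.8 CPM in controls and 12.4, 16.5 and 10.5 CPM in ANKO. Controls of Car4 spread widely, and ANKO 2 lay above control 1 (log2 fold change -0.70, SE 0.286, unadjusted p = 0.0439, edgeR adjusted p = 0.367). The 14 endothelial markers took 0.126% to 0.141% of counts in controls and 0.101% to 0.116% in ANKO, and all 14 had a negative log2 fold change. None was called by edgeR in the main fit, 4 had an unadjusted p under 0.05 and DESeq2 called 1. The smallest p belonged to Rgcc (log2 fold change -1.03, SE 0.189, edgeR adjusted p = 0.0508). With upper-quartile scaling, with the replicate block, with the muscle markers left out or without ANKO 2, edgeR called 1 lower. Pecam1 was at 202 ± 24 and 181 ± 2.91 CPM and Cdh5 at 211 ± 26.4 and 164 ± 17.9 CPM. Car4 counts per endothelial marker count were 0.0159 ± 0.00442 in controls and 0.0122 ± 0.00167 in ANKO (exact permutation p = 0.3, n = 3 per group, adjusted 0.6). This ratio is the only test made of endothelial RNA beside Car4.

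Car9, a transmembrane enzyme known as a target of the hypoxia response, had 3.33, 2.07 and 1.34 CPM in controls and 2.94, 2.30 and 2.09 CPM in ANKO. The ANKO libraries lay within the control range (log2 fold change 0.12, SE 0.359, edgeR adjusted p = 0.942), and the sign turned without control 3 or ANKO 1. Of 14 other hypoxia response genes 1 was called, Bnip3, against 1.59% of all features called in either direction. This mitophagy receptor stood at 115 ± 25.3 CPM in controls and was lower in ANKO at 39.5 ± 1.78 CPM (edgeR adjusted p = 0.00678, log2 fold change -1.55, SE 0.159). Vegfa and Slc2a1 were not called, and the median log2 fold change of the 14 was 0.0043. Car14, another transmembrane enzyme, had 2.32, 1.51 and 2.83 CPM in controls and 2.90, 1.39 and 1.39 CPM in ANKO (log2 fold change -0.23, SE 0.393, adjusted p = 0.879). Car14 shares 445 of its 2543 exon bases with Aph1a on the opposite strand and Car9 shares 214 of 2304 with Gm12454. The strand setting of the counting is not given, so reads there cannot be told apart.

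Car8, the member without enzyme activity, which is known for binding the inositol trisphosphate receptor, had 12.7, 10.9 and 8.04 CPM in controls and 15.1, 11.3 and 10.2 CPM in ANKO. Its groups overlapped (log2 fold change 0.21, SE 0.215, edgeR adjusted p = 0.77).

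Car3 is also a muscle gene, so its level was set beside the muscle RNA of each library. ANKO 1 held the most muscle RNA of all 6 libraries (3.65% of counts, Acta1 at 3139 CPM) and had the highest Car3 of the ANKO group, 2548 CPM. Control 2 had 0.362% muscle markers and 6740 CPM of Car3. ANKO 3 held almost no muscle RNA (0.0308%, Acta1 at 22.5 CPM, Ckm at 2.14 CPM) and had 2112 CPM of Car3, between ANKO 1 and ANKO 2. The muscle RNA was of the fast type, with Myh4 at 8328 CPM in ANKO 1, whereas the slow myosin Myh7 and the slow troponin Tnnt1 were at 1.66 and 1.21 CPM or less in every library. The 9 slow muscle markers, most of whose counts came from Atp2a2, a calcium pump that other cells also express, took 0.0197% to 0.0239% of control counts and 0.0229% to 0.0253% of ANKO counts. Of these 9, 5 were tested and 1 was called, Myl3, against 0.488% of all features called higher. Myl3 was higher in ANKO (0.417 ± 0.265 and 5.34 ± 1.49 CPM, edgeR adjusted p = 0.0128). No muscle marker of the 20 tested was called by edgeR or DESeq2 or had an unadjusted p under 0.05. The summed share was 1.15% ± 0.745 in controls and 1.43% ± 1.94 in ANKO. On the log2 values that the permutation test used, ANKO was the lower group (mean log2 difference -1.19, SE 2.13, exact permutation p = 0.7, n = 3 per group). On either scale the group difference was within its spread. With the mean log2 level of the muscle markers as a covariate, the log2 fold change of Car3 was -1.54 (SE 0.224, edgeR adjusted p = 0.0364). Beyond this fit, the part of muscle RNA in the Car3 values was not tested.

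**Figure D3:**
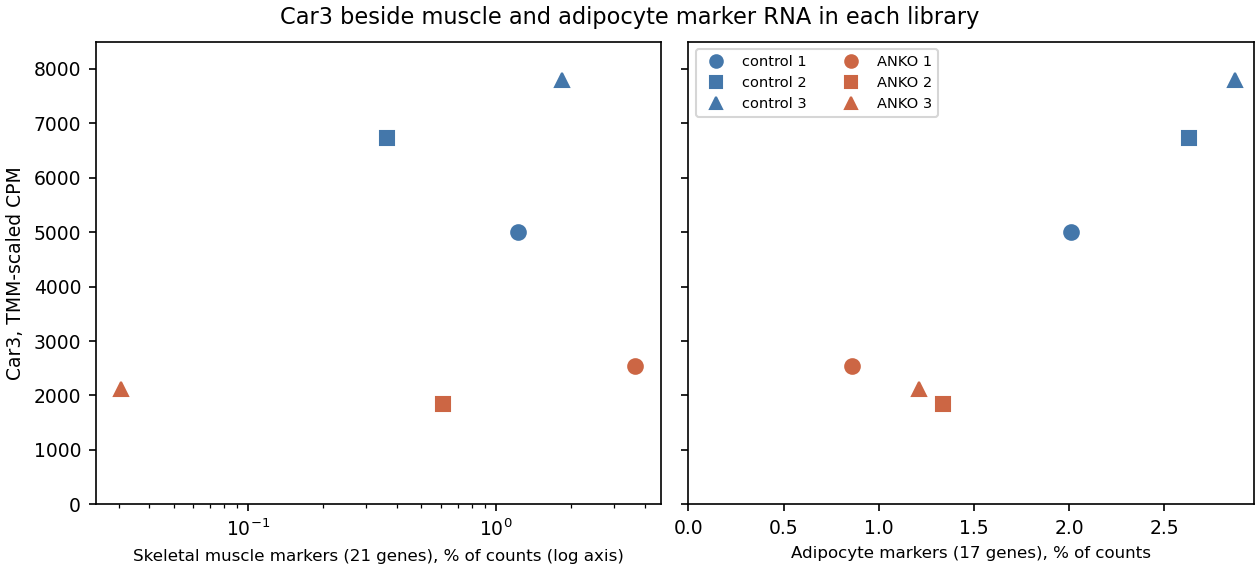
Car3 CPM in each library against the share of counts in 21 skeletal muscle markers (left, log axis) and in 17 adipocyte markers (right). ANKO libraries lie between 1849 and 2548 CPM with muscle shares from 0.0308% to 3.65%, and the 3 controls have the higher adipocyte marker shares.

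Adipocyte marker RNA was set beside Car3 in the same way. The summed share of the 17 adipocyte markers was 2.01%, 2.63% and 2.87% in controls and 0.86%, 1.34% and 1.21% in ANKO, where all 3 libraries lay below all controls (exact two-sided permutation p = 0.1, adjusted 0.267). Within ANKO the library with the most Car3, ANKO 1, had the lowest share. Of the 17, 6 were called lower and 0 higher by edgeR, against 1.1% and 0.488% of all features (8 and 0 by DESeq2). Their median log2 fold change was -0.75, with 14 negative and 3 positive values. Leaving out control 2 or ANKO 3 gave 2 lower calls, and leaving out control 3 gave 3. Car3 counts per adipocyte marker count were 0.252, 0.257 and 0.26 in controls, almost constant, and 0.296, 0.134 and 0.183 in ANKO. ANKO 1 lay above all controls and the other ANKO libraries below them (mean log2 difference -0.40, SE 0.331, exact permutation p = 0.4). Of the 17 markers, Cfd held the most counts in each control (129683, 154517 and 144425) and had 26861, 26262 and 25318 in ANKO. The order of libraries in this ratio can therefore depend on Cfd, and the ratio without Cfd was not tested. Per count of adiponectin (Adipoq), itself called lower (894 ± 145 to 342 ± 74.3 CPM), the Car3 ratio was 7.24 ± 0.477 and 6.75 ± 2.77 (exact permutation p = 0.7, n = 3 per group). Car5b per adipocyte marker count was higher in each ANKO library (0.00948, 0.0111 and 0.00857) than in each control (0.00697, 0.00701 and 0.00767), with exact permutation p = 0.1, adjusted 0.267. The same marker sum, with its fall in Cfd, is the denominator here. Whether Car5b separates the groups per count of the markers other than Cfd was not tested. With 3 libraries per group this exact test cannot go below p = 0.1.

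The genes whose profile over the 6 libraries was nearest to that of Car3 were Klf15, Gpt2, Podn, Pfkfb1 and Angpt1. Likeness was the root mean square difference of centred log2 values, taken over 10243 features of at least 10 CPM. It covers the group difference that the test had already found and the order of libraries within each group. Neither is therefore a separate finding for these genes. Klf15, a Krüppel-like transcription factor, differed by 0.076 log2 units, with 66.1, 87.3 and 106 CPM in controls and 32.9, 27.5 and 29.5 CPM in ANKO. As in Car3, control 1 was the lowest and control 3 the highest control, and ANKO 1 the highest and ANKO 2 the lowest knockout library. The mitochondrial alanine aminotransferase Gpt2 differed by 0.113, the proteoglycan Podn by 0.147, the bifunctional enzyme of fructose 2,6-bisphosphate Pfkfb1 by 0.148 and the vascular ligand Angpt1 by 0.168. All 5 were called lower by edgeR, with log2 fold changes from -1.66 (Gpt2, adjusted p = 0.0307) to -1.44 (Podn, adjusted p = 0.00577). The call of Gpt2 was lost in 7 of 16 alternative settings, that of Angpt1 without ANKO 2 or ANKO 3 and that of Klf15 without ANKO 3. Adipoq ranked 74th of these features at 0.341, and Plin1, the lipid droplet coat protein, 88th at 0.359. Retn, the adipokine resistin, ranked 209th at 0.502 and Cfd, the adipokine adipsin, 257th at 0.533.

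**Figure D4:**
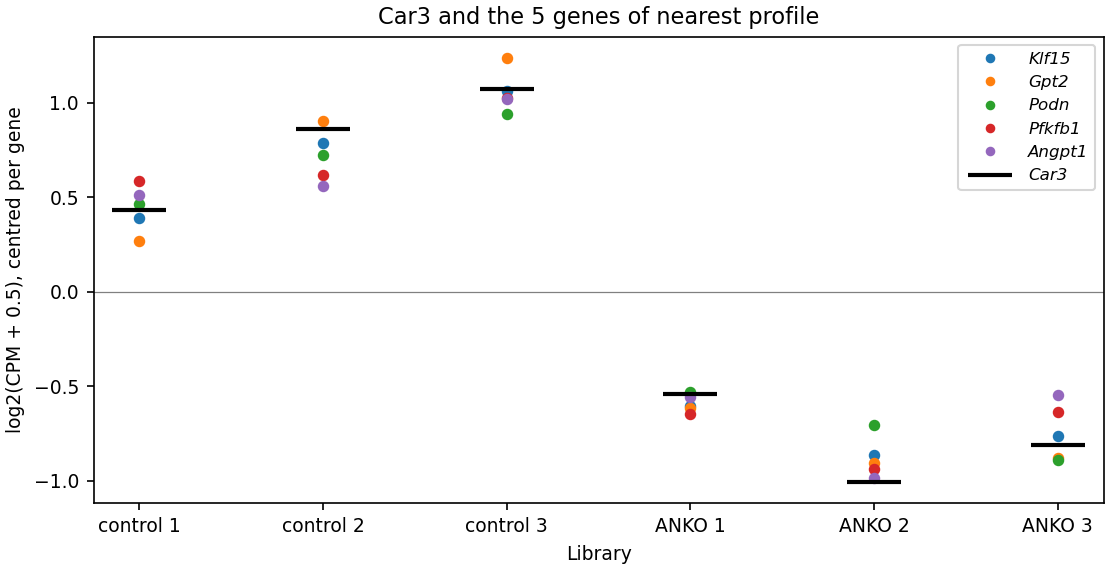
Centred log2(CPM + 0.5) of Car3 (black bars) and of the 5 genes nearest in profile (points) in each library. All 6 genes rank control 3 highest, and all 3 ANKO libraries lie below 0 for each gene.

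The 6 carbonic anhydrases outside the member list were measured alongside, and 4 passed the low-count filter. Car1, a red cell and colon enzyme that is the neighbour of Car3 in the cluster, had 13, 14 and 30 counts in controls and 0, 0 and 3 in ANKO. The groups did not overlap, and the summed counts were 57 and 3. Scaled to the TMM-corrected library totals, the ANKO to control ratio of Car1 was 0.0478 (95% exact interval 0.00957 to 0.147, counting error only). Its log2 fold change of -4.23 (SE 0.989, edgeR adjusted p = 0.097) did not pass the test, although it did without the low-count filter (adjusted p = 0.0492). The fitted value ranged from -7.36 without ANKO 3, the only ANKO library with Car1 counts, to -3.65 without ANKO 1, with adjusted p from 0.127 to 0.287 when any single library was left out. Red cell RNA differed between libraries too, and the share of the 10 erythroid markers was 0.0172%, 0.0156% and 0.0333% in controls and 0.00859%, 0.0194% and 0.0134% in ANKO. Hbb-bs and Hbb-bt, the adult beta globins, were at 79.1 ± 38.7 and 44.9 ± 19.2 CPM and at 15.9 ± 8 and 10.8 ± 4.69 CPM. Of 7 tested erythroid markers none was called by edgeR or DESeq2, 1 had an unadjusted p under 0.05 and all 7 had a negative log2 fold change. ANKO 2 held more red cell RNA than controls 1 and 2 while its Car1 count was 0, and the part of red cell RNA in Car1 was not tested. Car11 (5.49 ± 1.9 and 4.48 ± 1.02 CPM), Car12 (2.71 ± 0.513 and 3.54 ± 0.82 CPM) and Car15 (0.804 ± 0.298 and 0.515 ± 0.161 CPM) were not called, with adjusted p = 0.637 or above. Car15 shares 1253 of 1906 exon bases with Gm20518. Car6 and Car10 were not tested, with 13 and 6 counts in all 6 libraries.

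Log2 fold changes across the chromosome 3 cluster had both signs. From Car13 to Car2 the log2 fold changes were 0.13, -4.23, -1.59 and 0.71, of which that of Car3 was called. Beyond Car13, the genes 1810022K09Rik, E2f5 and Lrrcc1 had log2 fold changes of 0.0025, -0.12 and -0.14, none called.

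**Figure D5:**
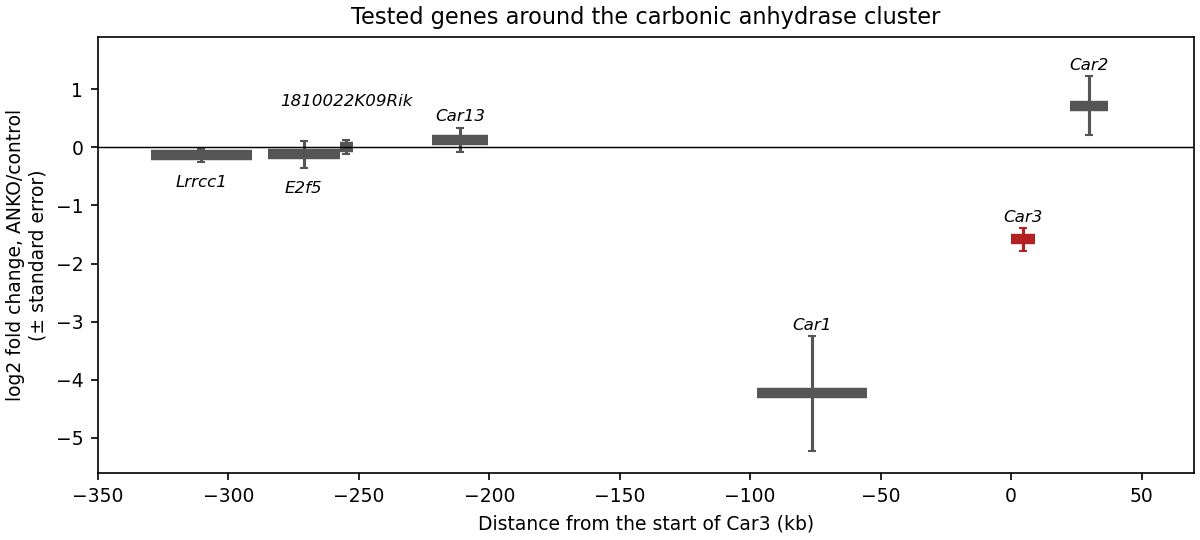
Log2 fold change (± standard error) of the tested genes around the chromosome 3 cluster against distance from the start of Car3 in kilobases, each bar spanning the gene. Car3, in red, is past the threshold, Car1 is lower with a wide error, and Car13 and Car2 on either side are at 0.13 and 0.71.

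Genes that move or use bicarbonate were compared from lists of their own. The list of bicarbonate and proton transport held 24 genes, of which Slc9a3r1 is not itself a transporter. Of the 24, 18 were tested and none was called by edgeR or DESeq2, 2 had an unadjusted p under 0.05, and the median log2 fold change was 0.11. The smallest p belonged to the proton channel Hvcn1 (88.5 ± 16.9 and 127 ± 21.7 CPM, log2 fold change 0.52, SE 0.176, edgeR adjusted p = 0.252). Of 10 enzymes that use bicarbonate or attach their biotin, 9 were tested, with a median log2 fold change of -0.48. DESeq2 called 4 of them lower. By edgeR 3 were called lower and 0 higher, against 1.1% and 0.488% of all features. The 3 were subunits of carboxylases of amino acid breakdown. Mccc1 and Mccc2 of methylcrotonyl-CoA carboxylase fell to 0.487 and 0.438 of control (edgeR adjusted p = 0.00618 for each). Pcca, the alpha subunit of propionyl-CoA carboxylase, had 70.7 ± 6.65 CPM in controls and 40.1 ± 2.97 in ANKO (adjusted p = 0.0107, log2 fold change -0.82, SE 0.0998), and its call was lost without ANKO 3 (adjusted p = 0.0552). Pyruvate carboxylase (Pcx), the partner named for mitochondrial carbonic anhydrases, had 1845, 1256 and 2097 CPM in controls and 867, 1727 and 1132 CPM in ANKO. Its groups overlapped (log2 fold change -0.48, SE 0.292, adjusted p = 0.58). The fatty acid synthesis carboxylases Acaca and Acacb were not called, with log2 fold changes of 0.21 and 0.21.

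Markers of other cells that can hold carbonic anhydrases were read in the same libraries. Of 12 macrophage markers 3 were called higher and 1 lower by edgeR (5 and 1 by DESeq2), against 0.488% and 1.1% of all features by edgeR. Unadjusted p was under 0.05 for 9 of the 12 in either direction. The median log2 fold change was 0.53, with 11 positive values and 1 negative. Their summed share was 0.0759% to 0.085% in controls and 0.0895% to 0.12% in ANKO. The 3 higher genes were Adgre1 (20.4 ± 0.444 and 40.9 ± 6.80 CPM), the lipid receptor Trem2 (1.28 ± 0.619 and 9.36 ± 4.74 CPM) and the glycoprotein Gpnmb (8.43 ± 1.86 and 81.1 ± 34.9 CPM). The lower gene was Acp5, tartrate-resistant acid phosphatase (189 ± 11.2 and 86.7 ± 8.21 CPM, edgeR adjusted p = 0.00352). Cd68 was not called (26.5 ± 2.49 and 45.2 ± 12.9 CPM, adjusted p = 0.138). Without control 2 none of these was called higher, and without control 1, control 3, ANKO 2 or ANKO 3 only 1 was. The macrophage marker share was higher in each ANKO library than in each control, and its part in the Car2 values was not tested. Schwann cell markers took 0.0357% to 0.0415% of control counts and 0.0365% to 0.048% of ANKO counts (Mbp 113 ± 9.82 and 120 ± 20.1 CPM). Epithelial markers ranged from 0.024% in control 3 to 0.182% in control 2 and from 0.0804% to 0.115% in ANKO (Epcam 74.2 ± 49.8 and 85.8 ± 15.3 CPM, Krt8 245 ± 237 and 164 ± 51.2 CPM). Neither list had a call by edgeR in the main fit or by DESeq2 among 8 and 7 tested genes, of which 1 and 0 had an unadjusted p under 0.05. Without control 3, edgeR called 1 epithelial marker higher.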

How the data were processed

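The submitters' processing notes name STAR 2.0.4b, GRCm38, Subread and featureCounts 1.45, with no further settings, and per the labels' protocols ribosomal RNA was depleted with Ribo-Zero Gold. The authors deposited raw counts per gene symbol, 1 column per mouse, matched to samples by title. Of 40757 lines, 329 exact repeats were dropped. Counts were fitted whole with edgeR 4.0.16 in R 4.3.3: filterByExpr (minimum count 10, total 15) left 19272 features, then TMM scaling and quasi-likelihood F tests (robust dispersion). P-values were adjusted by Benjamini and Hochberg's method across every tested feature, threshold 0.05. Standard errors are the log2 fold change over the square root of F. CPM are TMM-scaled, as mean ± SD. Ratios and summed shares were tested on log2 values by exact two-sided permutation (SciPy 1.17.1). Gene positions, lengths and overlaps come from GENCODE M21. The fit was tested on simulated data. Alternatives used DESeq2 1.42.0, limma-voom 3.58.1, other scalings and filters, a muscle covariate and leaving out each library. Members, lists and tests were chosen with earlier results of these data known. Named genes are all members, tested family genes, up to 3 called genes per pathway list (or the one of smallest p), the first 2 of each marker list (1 is not reported here) and the 5 nearest profiles; others were named after their values were seen. Nothing in the labels gives litters or dates, so p-values measure the spread between these mice.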

Additional observations from a re-analysis of the deposited data

How the results depend on the processing

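Car3 kept its direction in all 16 alternatives, from -1.74 to -1.43 (log2) over the 6 fits that left out a library and from -1.59 to -1.54 over the other 10, with adjusted p up to 0.046. Its call, and so the count of members called lower, was lost only without ANKO 3 (count 0, otherwise 1, log2 fold change -1.57, adjusted p = 0.0675), and the count called higher was 0 in all 16. Control and ANKO samples share only a number (correlations of same-numbered deviations 0.101, -0.0332 and -0.0459). Control 2 correlated best with ANKO 3 (0.124) and control 3 with ANKO 2 (0.0397). With the replicate block Car3 was at -1.58 (edgeR adjusted p = 0.046). Signs turned without 1 library for Car9 (-0.14 without control 3 and -0.02 without ANKO 1, up to 0.52), Car13 (-0.11 to 0.32) and Car11 (-0.44 to 0.039), none of them called. Car1 was called without the low-count filter (-4.22, adjusted p = 0.0492). Gpt2 was called in the main fit and lost its call in 7 alternatives, and Angpt1 without ANKO 2 or ANKO 3 and Klf15 without ANKO 3; the cause was not tested. Over all features 212 were lower and 94 higher. These counts became 482 and 371 with DESeq2, 112 and 50 with the muscle covariate, 55 to 221 and 20 to 107 without 1 library, 297 and 167 without the filter and 145 and 62 with the replicate block. Depth limits the calls for Car5a, Car1, Car6 and Car10.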
